A study of Mus musculus with 12 samples.

Results

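Interferon-stimulated genes are the set of genes that cells switch on when interferon binds its receptors, and many of them block virus replication. The set described here holds 38 listed mouse symbols: signalling factors, RNA and DNA sensors, IFIT and OAS proteins, GTPases, the ISG15 pathway, PARP enzymes with DTX3L, and other effectors. The set is a list of symbols, drawn up with earlier results of these data known, and a gene with several probe sets was represented by its brightest. Of the 38, 36 had a probe set of their own among the 18193 genes on the array, and 35 were tested. The probe set of Isg15, the ubiquitin-like modifier that gives 1 group its name, also lists a further gene, so no value is given for it. Ifi44 was not analysed here. Gbp3, a guanylate-binding GTPase, reached a log2 level of 5 on 1 array alone, with 6.21 on basal 9A1 replicate 1, and so was not tested.

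Type I and type III interferons act through receptors coupled to JAK kinases, which phosphorylate transcription factors, STAT2 among them. STAT2 acts with IRF9 at the interferon-stimulated response element in promoters, while interferon gamma acts mainly through another element, the gamma-activated site. IRF1 and IRF7 are transcription factors that extend or amplify the response, and RNA sensors such as MDA5 (Ifih1) lead to interferon production. In liver the response is best known from infection with hepatitis viruses.

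The RNA came from 2 lines of bipotential mouse embryonic liver (BMEL) cells, 9A1 and 14B3, immortal epithelial lines made from liver of mouse embryos at day 14 post coitum, of a CBA/J x C57Bl/6J cross. Each line was grown in basal culture (adherent), as an aggregate for 1 day and as an aggregate for 5 days, with 2 biological replicates for each of the 6 groups, 12 Affymetrix arrays in all. The labels name no interferon, virus, other agent or genetic change in any group. Levels are log2 values summarised with RMA, and array medians lay between 6.09 and 6.24. Differences are in log2 units with the standard error (SE) of limma's fit, over 4 arrays a culture, and a gene is called at an adjusted p under 0.05 over all 15781 genes tested (Benjamini-Hochberg). In bulk RNA, fewer cells making a transcript and less of it per cell cannot be told apart.

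The mean of the 4 epithelial markers Epcam, Krt8, Krt18 and Cdh1 lay between 11.58 and 13.08 on each array. The 4 did not move together: at 5 days Epcam (4.58 ± 0.97) and Cdh1 (0.40 ± 0.12) were higher, Krt18 was lower (-1.08 ± 0.12) and Krt8 was not called. Epcam read 12.63 on basal 9A1 replicate 1, 6.86 to 7.48 on the other 3 basal arrays and 12.88 to 13.24 at 5 days. Of 3 biliary markers tested 1 was lower at 5 days (Krt7, -1.72 ± 0.43). The blood marker Ptprc and the globin gene Hba-a1 were under a log2 level of 5 on all 12 arrays. The mean of the 11 blood and macrophage markers on the array lay between 6.14 and 6.54 on each array, and of 8 tested 1 was higher at 5 days (Csf1r, 2.55 ± 0.26) and 2 were lower (Cd68 and Cd14). None of the 6 endothelial and none of the 6 stellate or fibroblast markers tested was called at 5 days by limma, with 0 at an unadjusted p under 0.05 in each list. Of 5 hepatocyte markers 4 were higher at 5 days, where 16.9% of all genes tested were. On the array of basal 9A1 replicate 1 the mean hepatocyte marker level was 13.02, while the other 3 basal arrays ranged from 8.30 to 9.26, the 1 day arrays from 10.56 to 11.88 and the 5 day arrays from 12.79 to 13.79.

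Basal 9A1 replicate 1 also stood apart for the interferon-stimulated genes. It was the highest of the 4 basal arrays for 25 of the 35 members (71.4%, against 31.2% of all genes tested). At 1 day, 9A1 replicate 2 was the highest for 20 members (57.1%, against 33.6%). This array also had the highest mean of all 12 for the endothelial markers (5.23, against 4.79 to 5.16). So it did for the stellate and fibroblast markers (6.05, against 5.54 to 5.83) and the interferon ligand genes (5.39, against 4.78 to 5.17). The endothelial and ligand means lay near 5, and Tek, Lyve1, Ifng and Ifna11 were under 5 on all 12 arrays. Such levels do not show that those cells or ligands were present. The part of these genes in the members' levels was not tested. The SD over members of the difference between the 2 replicates was 1.06 for basal 9A1 and 0.790 for 9A1 at 1 day, and 0.177 to 0.306 for the other 4 groups. Over all genes tested it was 0.896 and 0.779, and 0.196 to 0.405 for the other 4 groups, so the wide spread was not confined to the members. Members whose call or sign at 5 days turned when 1 of the basal 9A1 arrays was left out are given with and without it.

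Promoter sequences for 27 of the 36 members were in a RefSeq table of build GRCm38.p6, each window running from 250 bases before a transcript start to 50 after it. The letters GAAA, any 2 bases and GAAA again, the core of the interferon-stimulated response element, were searched on both strands, and overlapping matches were counted. They stood in a window of 10 of the 27 members (37.0%), against 3.99% of the 27025 genes of the table. Of the 10 risen members with a window 4 had a match (Stat2, Ifih1, Ifit1 and Ifit3). Of the 16 members not called with a window 5 had one (Eif2ak2, Oas1a, Gbp2, Rsad2 and Bst2), as did Gbp3. The letters TTCNNNGAA of the gamma-activated site stood in 9 of the 27 (33.3%), against 9.55% of genes. Among those with a window they stood in 2 of the 10 risen members and in 7 of the 16 not called. A match is a description of the sequence and shows no binding.

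Shown here are the 250 bases before the start of 2 members that rose at 5 days, Ifit1 and Stat2, and of 3 that were not called, Gbp2, Rsad2 and Bst2. They are chosen because both kinds carry the motif, in capitals, within bases that lie wholly outside the annotated span of their own gene. Positions are Ifit1 at chr19:34640639-34640888 (plus strand), Stat2 at chr10:128270248-128270497 (plus strand), Gbp2 at chr3:142620413-142620662 (plus strand), Rsad2 at chr12:26456453-26456702 (minus strand) and Bst2 at chr8:71537473-71537722 (minus strand). Each is written 5′ to 3′ on its gene's strand, ending at the base before the start. Ifit1 has 2 separate matches, and in Bst2 2 matches overlap.
Ifit1: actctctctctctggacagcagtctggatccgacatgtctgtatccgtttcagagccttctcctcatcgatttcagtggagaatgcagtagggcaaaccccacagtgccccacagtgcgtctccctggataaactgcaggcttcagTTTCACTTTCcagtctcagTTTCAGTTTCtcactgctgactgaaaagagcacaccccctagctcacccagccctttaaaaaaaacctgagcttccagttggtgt
Stat2: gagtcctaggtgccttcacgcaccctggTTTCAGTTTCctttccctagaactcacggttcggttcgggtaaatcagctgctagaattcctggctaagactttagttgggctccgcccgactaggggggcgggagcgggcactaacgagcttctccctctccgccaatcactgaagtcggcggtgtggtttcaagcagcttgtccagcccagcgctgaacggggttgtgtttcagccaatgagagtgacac
Gbp2: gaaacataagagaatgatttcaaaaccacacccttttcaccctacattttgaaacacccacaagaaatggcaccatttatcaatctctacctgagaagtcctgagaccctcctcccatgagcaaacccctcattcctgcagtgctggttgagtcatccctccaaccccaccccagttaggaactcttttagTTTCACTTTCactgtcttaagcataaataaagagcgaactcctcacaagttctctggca
Rsad2: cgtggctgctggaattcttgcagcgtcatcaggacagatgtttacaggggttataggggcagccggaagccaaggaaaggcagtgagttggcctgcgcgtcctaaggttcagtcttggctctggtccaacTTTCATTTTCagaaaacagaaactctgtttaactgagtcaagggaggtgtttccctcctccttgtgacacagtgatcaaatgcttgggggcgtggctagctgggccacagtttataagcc
Bst2: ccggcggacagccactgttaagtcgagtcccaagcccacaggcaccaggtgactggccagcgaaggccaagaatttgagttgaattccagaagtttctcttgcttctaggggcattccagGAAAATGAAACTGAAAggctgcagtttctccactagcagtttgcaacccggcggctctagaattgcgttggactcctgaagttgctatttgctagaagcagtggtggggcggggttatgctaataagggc
The first match of Ifit1 begins at base -104 and the second at -85, that of Stat2 at -222, of Gbp2 at -59, of Rsad2 at -120 and the pair in Bst2 at -130 and -124, counted back from the start. Ifit3 has 2 matches, at -156 and -122, with the same letters as those of Ifit1 (TTTCACTTTC and TTTCAGTTTC on the gene's strand). Ifit2, whose product belongs to the same family and whose gene lies beside theirs on chromosome 19, has none in its 2 windows.

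The first comparison asked how the members' levels in 5 day aggregates differed from those in basal culture. Of the 35 members 12 rose (34.3%), against 16.9% of all genes tested, and none fell, against 18.5% of all genes. By limma 15 members passed at an unadjusted p under 0.05, 1 of them lower (Ifit2). The median difference of the 35 was 0.34, against 0.01 over all genes, and members ranged from -1.14 to 2.54. The rises came from 5 of the 7 role groups, and all 4 PARP and DTX3L genes were among them, while none of the GTPases or ISG15 pathway genes was. Of the 35, 28 were at a log2 level of 5 or above on all 12 arrays, and Ifit1 reached that level on no basal array, so it entered the test only through aggregate arrays. For 7 of the 35 the difference had opposite signs without basal 9A1 replicate 1 and without replicate 2: Adar, Bst2, Irf9, Oas1a, Oas2, Oasl1 and Oasl2.

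**Figure D1:**
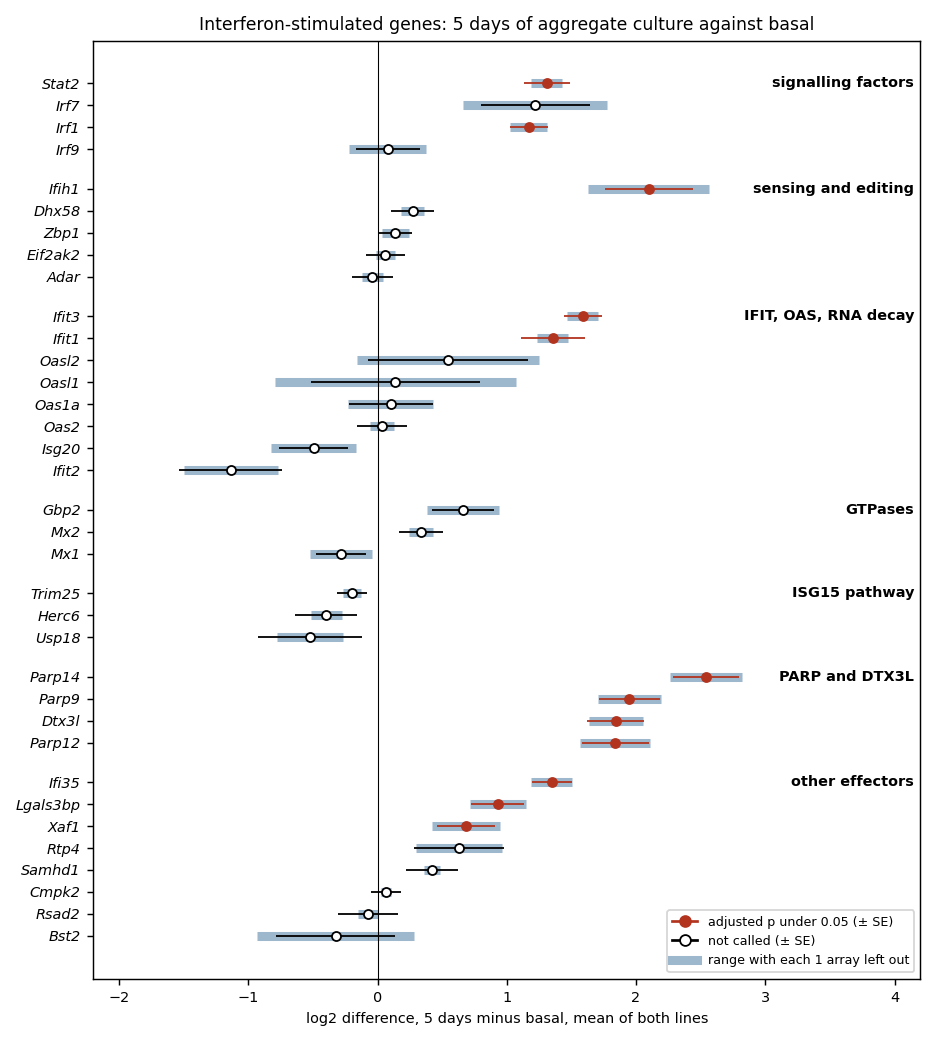
Difference in log2 level between 5 days of aggregate culture and basal culture for the 35 tested members, by role (points, mean of both lines; thin lines, ± SE; filled, adjusted p under 0.05; pale bars, range of the estimate when each 1 of the 12 arrays is left out). All 4 PARP and DTX3L genes lie at 1.84 or above, and the pale bar of Oasl1 reaches from -0.80 to 1.07.

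Among the signalling factors 2 of 4 rose. Stat2, the STAT protein particular to the type I and III response, read 6.41 and 6.18 in 9A1 and 6.49 and 6.58 in 14B3 in basal culture, 6.34 and 6.89 in 9A1 and 6.97 and 6.78 in 14B3 at 1 day and 7.52 and 7.86 in 9A1 and 7.52 and 8.0 in 14B3 at 5 days. All 4 arrays at 5 days lay above all 8 others. The difference was 1.31 ± 0.18 (2.48-fold, limma adjusted p = 0.000637), and the second probe set of the gene gave 1.03 ± 0.19 (adjusted p = 0.0031 over all probe sets).

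Irf1, a transcription factor induced by interferon gamma and other cytokines, read 9.63 and 9.06 in 9A1 and 8.64 and 8.72 in 14B3 in basal culture and 9.80 and 10.06 in 9A1 and 10.38 and 10.50 in 14B3 at 5 days. Every 5 day array was above every basal array, the nearest being basal 9A1 replicate 1. The difference was 1.17 ± 0.15 (2.25-fold, adjusted p = 0.000468).

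Irf7, the factor that amplifies type I interferon production, read 8.18 and 5.95 in 9A1 and 6.47 and 6.55 in 14B3 in basal culture and 7.72 and 7.90 in 9A1 and 8.18 and 8.23 in 14B3 at 5 days. Basal 9A1 replicate 1 lay within the 5 day range, and on the other 3 basal arrays it was lower than on any of them. It was not called (1.22 ± 0.42, adjusted p = 0.0506), and without that array the difference was 1.78 (adjusted p = 0.000319). Leaving out basal 9A1 replicate 2 instead gave 0.66 (adjusted p = 0.0649). Irf9, the DNA-binding partner of STAT2, differed by 0.08 ± 0.25 (adjusted p = 0.876). Leaving out basal 9A1 replicate 1 gave 0.38 (adjusted p = 0.13) and leaving out replicate 2 gave -0.22 (adjusted p = 0.45).

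Of the 5 genes for sensing and editing 1 rose. Ifih1, which encodes the double-stranded RNA sensor MDA5, read 9.65 and 7.77 in 9A1 and 7.70 and 7.91 in 14B3 in basal culture, 9.11 and 8.69 in 9A1 and 9.25 and 9.04 in 14B3 at 1 day and 10.05 and 10.25 in 9A1 and 10.55 and 10.57 in 14B3 at 5 days. Basal 9A1 replicate 1 lay above all 4 arrays of 1 day, and all 5 day arrays lay above the rest. The difference was 2.10 ± 0.34 (4.28-fold, adjusted p = 0.00149), the second largest of the set.

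The other 4 sensing and editing genes were not called. Dhx58 (LGP2, a regulator of MDA5) differed by 0.27 ± 0.17 and Zbp1, a sensor of Z-form nucleic acids, by 0.14 ± 0.13. Eif2ak2 (the kinase PKR) differed by 0.06 ± 0.15 and Adar, which edits adenosine to inosine in double-stranded RNA, by -0.04 ± 0.16. Adjusted p ran from 0.272 to 0.903. The difference of Adar was 0.04 with basal 9A1 replicate 1 left out and -0.12 with replicate 2 left out.

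In the IFIT, OAS and RNA decay group 2 of 8 rose, both of them IFIT genes, whose proteins bind foreign RNA. Ifit3 read 6.19 and 5.72 in 9A1 and 5.63 and 5.55 in 14B3 in basal culture, 6.16 and 6.23 in 9A1 and 6.12 and 5.76 in 14B3 at 1 day and 7.41 and 7.61 in 9A1 and 7.29 and 7.13 in 14B3 at 5 days. The 5 day arrays were all above the other 8. The difference was 1.59 ± 0.15 (3.0-fold, adjusted p = 0.000107). A near-identical copy of this gene, Ifit3b, is known, and the probe set may not tell them apart.

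Ifit1 read 4.79 and 4.31 in 9A1 and 4.59 and 4.29 in 14B3 in basal culture, 4.39 and 5.64 in 9A1 and 4.42 and 4.42 in 14B3 at 1 day and 6.34 and 6.06 in 9A1 and 5.59 and 5.41 in 14B3 at 5 days. It was low on all basal arrays and on 3 of the 4 arrays at 1 day, and 9A1 replicate 2 at 1 day overlapped the 5 day range. The fitted difference between 5 days and basal was 1.36 ± 0.25 (adjusted p = 0.00262). As all basal arrays were under the level of 5, a filter that is no measured background, its size is uncertain. With basal levels set at 5 the difference was 0.85, or at least 1.8-fold higher.

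Ifit2, of the same family, gave a difference below 0. It read 5.82 and 7.28 in 9A1 and 6.80 and 5.91 in 14B3 in basal culture, 6.59 and 5.06 in 9A1 and 5.49 and 5.40 in 14B3 at 1 day and 5.67 and 5.26 in 9A1 and 5.29 and 5.06 in 14B3 at 5 days. All 5 day arrays lay below all basal arrays, while the basal arrays were widely spread. The difference of -1.14 ± 0.40 was not called (adjusted p = 0.0528). Without basal 9A1 replicate 1 it was -1.50 (adjusted p = 0.00976), and with replicate 2 left out it was -0.77 (adjusted p = 0.162).

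None of the 4 OAS genes was called at 5 days by limma, and none passed at an unadjusted p under 0.05. OAS enzymes make 2-5A, which activates the endonuclease RNase L. Oas2 lay between 6.69 and 7.60 on all 12 arrays (0.03 ± 0.20, adjusted p = 0.934), with a difference of 0.13 with basal 9A1 replicate 1 left out and -0.06 with replicate 2 left out. Oas1a read 8.44 and 7.13 in 9A1 and 7.34 and 7.28 in 14B3 in basal culture, 7.21 and 8.51 in 9A1 and 7.26 and 7.36 in 14B3 at 1 day and 7.49 and 7.54 in 9A1 and 7.72 and 7.84 in 14B3 at 5 days (0.10 ± 0.33, adjusted p = 0.88). Its level was highest on the 2 arrays that stood apart and close to that of the rest elsewhere. Its difference without basal 9A1 replicate 1 was 0.43 (adjusted p = 0.294), and with replicate 2 left out it was -0.23 (adjusted p = 0.673).

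Oasl1 and Oasl2, OAS-like proteins of which the first is known to curb Irf7 translation, were the members most divided between the basal 9A1 replicates. Oasl1 read 10.02 and 6.29 in 9A1 and 6.40 and 6.70 in 14B3 in basal culture and 6.83 and 7.17 in 9A1 and 7.98 and 7.97 in 14B3 at 5 days. With all arrays the difference was 0.14 ± 0.65 (adjusted p = 0.92). Without basal 9A1 replicate 1 it was 1.07 (adjusted p = 0.00707), and without basal 9A1 replicate 2 it was -0.80 (adjusted p = 0.0375), so the direction turned with the array left out. Oasl2 read 7.54 and 4.72 in 9A1 and 5.26 and 4.92 in 14B3 in basal culture and 5.08 and 5.65 in 9A1 and 6.78 and 7.10 in 14B3 at 5 days (0.55 ± 0.62, adjusted p = 0.598). Its difference was 1.25 (adjusted p = 0.0617) with basal 9A1 replicate 1 left out and -0.16 (adjusted p = 0.888) with replicate 2 left out. In 14B3 both genes were higher at 5 days on both arrays than on either basal array.

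Isg20, an exonuclease that degrades RNA, read 9.72 and 8.41 in 9A1 and 9.51 and 9.63 in 14B3 in basal culture and 8.87 and 9.30 in 9A1 and 8.74 and 8.38 in 14B3 at 5 days. The 14B3 arrays were lower at 5 days, and the basal 9A1 pair was split around the 9A1 values of 5 days. The difference of -0.50 ± 0.26 was not called (adjusted p = 0.197). It was -0.17 (adjusted p = 0.54) with basal 9A1 replicate 1 left out and -0.82 (adjusted p = 0.00608) with replicate 2 left out.

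**Figure D2:**
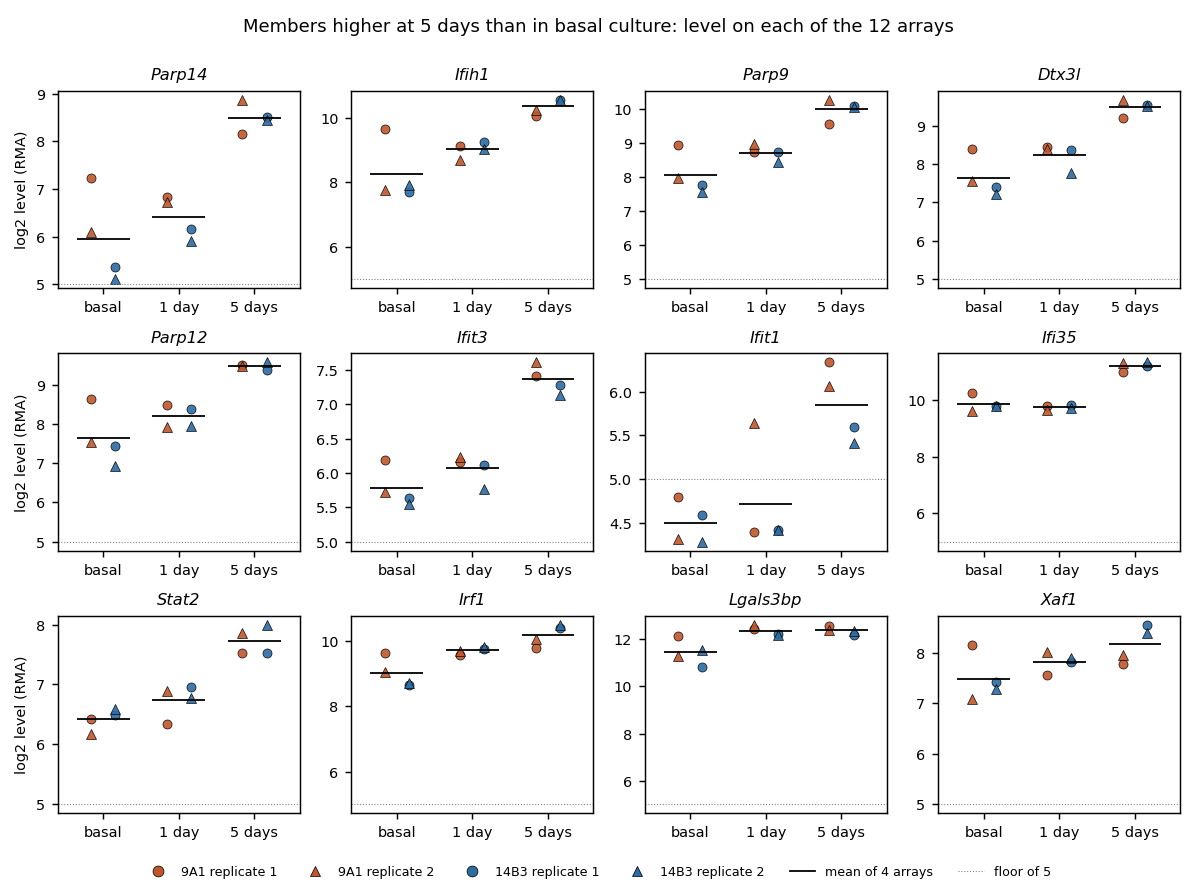
Log2 level on each of the 12 arrays for the 12 members higher at 5 days than in basal culture (circles and triangles, replicates 1 and 2; red, 9A1; blue, 14B3; bars, mean of 4 arrays; dotted line, the log2 level of 5 used by the filter). In 11 of the 12 panels every 5 day array is above every basal array, and the exception is Xaf1. Ifit1 is under 5 on all basal arrays.

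The GTPases were not called. Gbp2, a guanylate-binding protein best known from the interferon gamma response, read 5.57 and 4.46 in 9A1 and 4.48 and 4.39 in 14B3 in basal culture and 5.35 and 4.61 in 9A1 and 5.92 and 5.67 in 14B3 at 5 days. Both 14B3 arrays at 5 days were above both basal ones, and in 9A1 the groups overlapped. The difference was 0.66 ± 0.24 (adjusted p = 0.0631, the 1 GTPase under 0.05 unadjusted), and without basal 9A1 replicate 1 it was 0.94 (adjusted p = 0.00363). Without replicate 2 it was 0.38 (adjusted p = 0.181). Mx1 and Mx2, dynamin-like antiviral GTPases, differed by -0.28 ± 0.19 (adjusted p = 0.325) and 0.34 ± 0.17 (adjusted p = 0.174). Mx1 was at a log2 level of 5 or above on 2 arrays, both basal. It entered the test only through them, so the size of its difference is uncertain. The difference of Mx1 was -0.05 with basal 9A1 replicate 1 left out and -0.52 with replicate 2 left out.

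The 3 ISG15 pathway genes with values all had differences below 0 and none was called, with 0 at an unadjusted p under 0.05 by limma. Usp18, the protease that removes ISG15 and restrains the type I receptor, read 5.94 and 4.91 in 9A1 and 6.34 and 6.46 in 14B3 in basal culture and 5.42 and 5.32 in 9A1 and 5.52 and 5.30 in 14B3 at 5 days. In 14B3 both 5 day arrays were below both basal ones, and in 9A1 they fell between the basal pair. The difference was -0.52 ± 0.40 (adjusted p = 0.394). Herc6, the main ISG15 ligase of the mouse, differed by -0.40 ± 0.24 (adjusted p = 0.263). The dimmest probe set of Herc6 tested was called lower, at -1.12 ± 0.26 (adjusted p = 0.00891 over all probe sets). Its mean over the arrays was 4.68, under the level of 5, so the size is uncertain. Another gave -0.87 ± 0.32 (adjusted p = 0.065 over all probe sets), and neither that one nor the one used was called. Trim25, a ubiquitin ligase that acts on RIG-I, lay between 10.67 and 11.29 on all arrays and differed by -0.20 ± 0.11 (adjusted p = 0.235).

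All 4 genes of the PARP and DTX3L group rose. PARP proteins attach ADP-ribose to other proteins. Parp14 read 7.23 and 6.10 in 9A1 and 5.37 and 5.11 in 14B3 in basal culture, 6.84 and 6.74 in 9A1 and 6.16 and 5.92 in 14B3 at 1 day and 8.15 and 8.88 in 9A1 and 8.52 and 8.44 in 14B3 at 5 days. The 5 day arrays lay far above all others, and in basal culture 9A1 was above 14B3. The difference was 2.54 ± 0.25 (5.82-fold, adjusted p = 0.000151), the largest of the set. A second, dimmer probe set of the gene gave 0.29 ± 0.12 (adjusted p = 0.103 over all probe sets) and was not called.

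Parp9 and Dtx3l encode partners: DTX3L is a ubiquitin ligase that works as a complex with PARP9. Parp9 read 8.92 and 7.96 in 9A1 and 7.77 and 7.56 in 14B3 in basal culture, 8.72 and 8.97 in 9A1 and 8.73 and 8.45 in 14B3 at 1 day and 9.56 and 10.27 in 9A1 and 10.09 and 10.07 in 14B3 at 5 days. Dtx3l read 8.39 and 7.56 in 9A1 and 7.41 and 7.22 in 14B3 in basal culture, 8.44 and 8.41 in 9A1 and 8.36 and 7.77 in 14B3 at 1 day and 9.20 and 9.69 in 9A1 and 9.54 and 9.53 in 14B3 at 5 days. For both genes the 5 day arrays were above all others, and basal 9A1 replicate 1 was as high as the 1 day arrays.

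The difference was 1.95 ± 0.24 for Parp9 (3.86-fold, adjusted p = 0.000383). It was 1.84 ± 0.22 for Dtx3l (3.59-fold, adjusted p = 0.00035), and a second probe set of Dtx3l gave 1.79 ± 0.18 (adjusted p = 0.000195 over all probe sets). The annotated spans of both genes overlap at their ends on chromosome 16, and Parp14 lies close by. Parp12, on chromosome 6, read 8.63 and 7.54 in 9A1 and 7.45 and 6.93 in 14B3 in basal culture, 8.49 and 7.93 in 9A1 and 8.39 and 7.96 in 14B3 at 1 day and 9.49 and 9.47 in 9A1 and 9.37 and 9.58 in 14B3 at 5 days. It too had its 5 day arrays above all others (1.84 ± 0.26, 3.58-fold, adjusted p = 0.000746).

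Of the 8 other effectors 3 rose. Ifi35, a leucine zipper protein that binds NMI, read 10.26 and 9.63 in 9A1 and 9.80 and 9.80 in 14B3 in basal culture, 9.78 and 9.64 in 9A1 and 9.83 and 9.73 in 14B3 at 1 day and 10.99 and 11.32 in 9A1 and 11.23 and 11.35 in 14B3 at 5 days. The arrays of 1 day lay within the basal range, and the 5 day arrays stood above the rest. The difference was 1.35 ± 0.16 (2.54-fold, adjusted p = 0.000287), and all 3 of its probe sets were called higher.

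Lgals3bp, a secreted galectin-binding glycoprotein, read 12.15 and 11.29 in 9A1 and 10.82 and 11.55 in 14B3 in basal culture and 12.58 and 12.41 in 9A1 and 12.18 and 12.37 in 14B3 at 5 days. Every 5 day array was above every basal array, the gap to basal 9A1 replicate 1 being small. The difference was 0.93 ± 0.21 (1.91-fold, adjusted p = 0.00681). Xaf1, which binds the apoptosis inhibitor XIAP, read 8.16 and 7.09 in 9A1 and 7.42 and 7.29 in 14B3 in basal culture and 7.78 and 7.97 in 9A1 and 8.56 and 8.39 in 14B3 at 5 days, so basal 9A1 replicate 1 lay within the 5 day range. Its difference of 0.68 ± 0.23 was the smallest called (adjusted p = 0.0424). It was called in 3 of the 12 fits that left out 1 array (highest adjusted p = 0.129), with 0.95 (adjusted p = 0.00147) with basal 9A1 replicate 1 left out and 0.42 (adjusted p = 0.0886) with replicate 2 left out, and a second probe set gave 0.06 ± 0.22 (adjusted p = 0.891 over all probe sets).

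The remaining 5 effectors were not called. Rsad2 (viperin) differed by -0.07 ± 0.23 and Cmpk2, a nucleotide kinase encoded beside it on chromosome 12, by 0.06 ± 0.12. Rtp4, a chaperone of receptors, differed by 0.63 ± 0.35 (adjusted p = 0.212). Without basal 9A1 replicate 1, which read 7.57 against 6.24 to 6.32 on the other 3 basal arrays, its difference was 0.96 (adjusted p = 0.0348). Leaving out replicate 2 instead gave 0.30 (adjusted p = 0.594).

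Bst2 (tetherin), which holds budding virions at the cell surface, read 6.60 and 9.04 in 9A1 and 7.98 and 7.55 in 14B3 in basal culture and 7.86 and 7.59 in 9A1 and 7.19 and 7.24 in 14B3 at 5 days. The basal 9A1 pair lay farthest apart, with replicate 1 lowest, and the difference of -0.33 ± 0.46 was not called (adjusted p = 0.686). It was -0.94 (adjusted p = 0.0136) without basal 9A1 replicate 1 and 0.29 (adjusted p = 0.489) with replicate 2 left out, so its sign turned with the array left out. Samhd1, which degrades deoxynucleotides, gave 0.42 ± 0.20 by its highest probe set, whose 5 day arrays were all above the basal ones (adjusted p = 0.142). Another of its probe sets gave -0.66 ± 0.16 (adjusted p = 0.0105 over all probe sets), so no direction can be given for this gene.

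Counted by arrays, 12 members had all 4 arrays of 5 days above all 4 basal arrays, against 18.5% of all genes tested. They were Samhd1 and the called members other than Xaf1. For Ifit2 and Trim25 all 5 day arrays lay below all basal ones, against 20.3% of all genes. The mean of the hepatocyte markers was also higher at 5 days and on basal 9A1 replicate 1. At 1 day it was 10.56 to 11.88, already above the other basal arrays (8.30 to 9.26), while few members were called then. The members' mean was 7.01 to 7.12 on those basal arrays. It was 7.23 to 7.65 at 1 day and 7.66 to 7.86 at 5 days. The part of the hepatocyte markers in the result was not tested. The mean of the blood markers lay at 6.14 to 6.29 in basal culture and 6.18 to 6.54 at 5 days. With basal 9A1 replicate 1 left out the count was 16 higher and 2 lower, against 19.6% and 20.8% of all genes. The added calls were Irf7, Oasl1, Gbp2 and Rtp4, higher, and Ifit2 and Bst2, lower. Leaving out basal 9A1 replicate 2 gave differences of -0.82 for Isg20, -0.52 for Mx1 and -0.80 for Oasl1. Mx1 reached 5 on 2 basal arrays alone and entered the test only through them, so the size of its fall is uncertain. Irf7, Ifit2 and Samhd1 were also called with either 9A1 array of 1 day left out. Basal 9A1 replicate 1 was the highest basal array for 25 of the 35 members, so leaving it out lowered their basal levels. More rises without it, alone or with 9A1 replicate 2 of 1 day, were largely set by that choice. They add no support. Both arrays were chosen after these members' levels on them were seen.

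**Figure D3:**
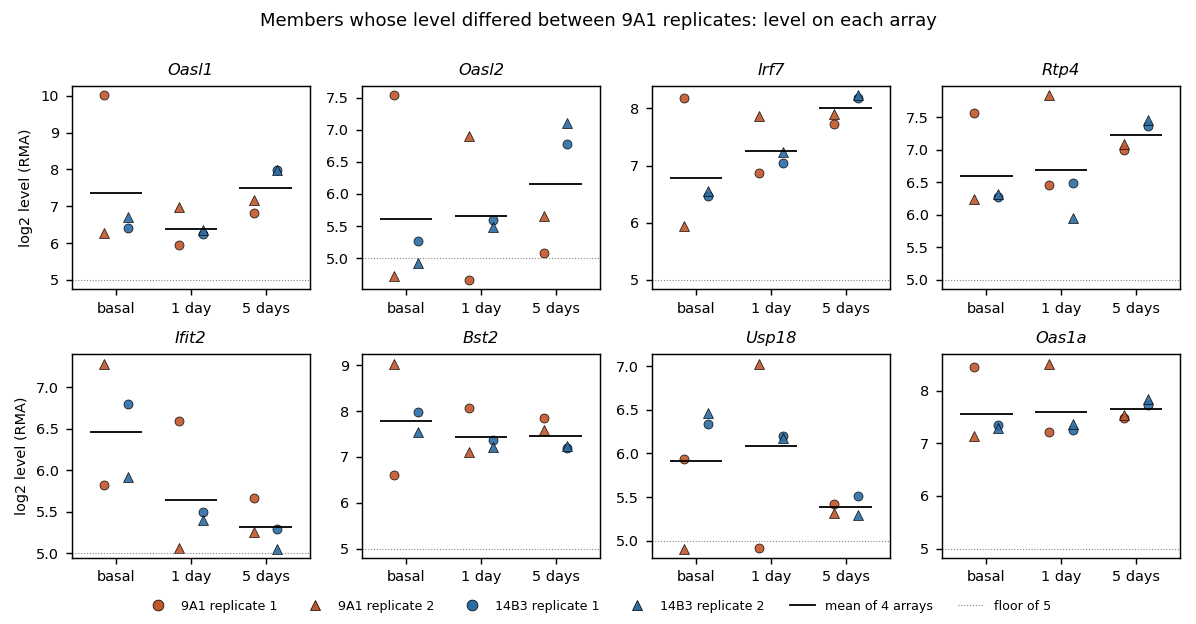
Log2 level on each of the 12 arrays for 8 members whose values were divided between 9A1 replicates (symbols as in the plot of risen members). Basal 9A1 replicate 1 is the highest basal array for Oasl1 (10.02), Oasl2, Irf7, Rtp4 and Oas1a and the lowest for Ifit2 and Bst2.

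The second comparison asked which members had changed after 1 day of aggregate culture. Of 35 members 2 rose (5.71%, against 5.25% of all genes tested) and none fell (8.8% of all genes). By limma 4 passed at an unadjusted p under 0.05, the other two being Parp9 and Dtx3l. The median difference was 0.16, against 0.03 for all genes. Irf1 read 9.58 and 9.68 in 9A1 and 9.76 and 9.81 in 14B3 at 1 day, and 1 basal array, 9A1 replicate 1, lay within that range. Its difference was 0.69 ± 0.15 (adjusted p = 0.0164). Lgals3bp read 12.45 and 12.63 in 9A1 and 12.22 and 12.19 in 14B3 at 1 day, above every basal array, and its difference was 0.92 ± 0.21 (adjusted p = 0.0189). It was the 1 member whose 1 day arrays were all above the basal arrays, against 5.37% of all genes.

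Both calls at 1 day depended on the arrays kept. Irf1 passed in 8 of the 12 fits that left out 1 array and missed without any 1 of the 14B3 arrays of basal culture or 1 day (adjusted p = 0.0543 to 0.0783). Lgals3bp passed in 9 and missed without basal 14B3 replicate 1 or without either 14B3 array of 1 day (adjusted p = 0.0706 to 0.0787). When basal 9A1 replicate 1 was left out the count was 9 higher and 2 lower, against 10.3% and 12.4% of all genes. Those higher besides Irf1 and Lgals3bp were Ifih1 (1.23, adjusted p = 0.000748), Irf7, Xaf1 and the 4 PARP and DTX3L genes, of which Parp9 had the largest difference (0.91, adjusted p = 0.0106). Those lower were Ifit2 (-1.18, adjusted p = 0.0491) and Bst2 (-0.97, adjusted p = 0.0213). Ifit1, Ifit3, Stat2 and Ifi35, all higher at 5 days, were not called at 1 day in that fit. Basal 9A1 replicate 1 was the highest basal array for 25 of the 35 members. Added rises without it were therefore largely set by that choice. The count was 2 higher and 2 lower when basal 9A1 replicate 2 was left out (4.68% and 9.18% of all genes) and 5 higher and 1 lower when 9A1 replicate 1 of 1 day was (12.5% and 17.9%). For Samhd1 the highest probe set differed by 0.07 ± 0.20 at 1 day, while another 2 were called lower, at -1.57 ± 0.22 (adjusted p = 0.00276 over all probe sets) and -0.79 ± 0.16 (adjusted p = 0.0124 over all probe sets). The latter was also called lower at 5 days, at -0.66 ± 0.16 (adjusted p = 0.0105 over all probe sets). The dimmest of the Herc6 probe sets tested was also called lower at 1 day, at -1.05 ± 0.26 (adjusted p = 0.0291 over all probe sets).

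The third comparison, 5 days against 1 day, shares its 5 day and 1 day arrays with the others. Of 35 members 10 rose (28.6%, against 11.7% of all genes tested) and none fell (10% of all genes). By limma 12 passed at an unadjusted p under 0.05, and Gbp2 (higher) and Herc6 (lower) were the other two. Parp14 rose by 2.08 ± 0.25 (4.24-fold, adjusted p = 0.000914) and Ifi35 by 1.47 ± 0.16 (2.78-fold, adjusted p = 0.000505). Ifih1, Ifit3, Parp12, Parp9, Dtx3l and Ifit1 rose by 1.13 to 1.33 and Stat2 by 0.98 ± 0.18. Ifit1 was under 5 on 3 of the 4 arrays of 1 day. With 9A1 replicate 1 of 1 day left out, replicate 2, which stood apart, was the only 9A1 array of 1 day. Adar, Herc6, Rsad2 and Usp18 then differed by -0.41, -0.83, -0.49 and -1.22 between 1 and 5 days. With that replicate 2 and basal 9A1 replicate 1 left out instead, they differed by -0.10, -0.30, 0.11 and -0.17.

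Irf1 was the weakest of the 10 between 1 and 5 days (0.48 ± 0.15, adjusted p = 0.0499). Lgals3bp, high by 1 day, differed by 0.01 ± 0.21 between 1 and 5 days (adjusted p = 0.98). For 8 members all 5 day arrays were above all 1 day arrays, against 15.1% of all genes, and for Herc6 all were below (12.1% of all genes). Ifih1 was called in 5 of the 12 fits that left out 1 array. It missed without 9A1 replicate 2 or either 14B3 array of 1 day and without any 1 of the 4 arrays of 5 days (adjusted p = 0.0527 to 0.0823). Irf1 was called in 3 of the 12 such fits (highest adjusted p = 0.178). Without both arrays that stood apart 19 members were higher and 1 lower, against 18% and 24.4% of all genes.

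The lines were then compared. Averaged over the cultures, no member was called between 9A1 and 14B3 by limma, with 3 at an unadjusted p under 0.05, and 0.272% of all genes were called. The largest difference was in Parp14, higher in 9A1 by 0.74 ± 0.21 (adjusted p = 0.244). Within cultures no member was called either, with 4 members at an unadjusted p under 0.05 in basal culture (0.019% of all genes called), 0 at 1 day (0%) and 2 in the 5 day aggregates (0.247%). In basal culture the difference for Parp14 was 1.42 ± 0.36 (adjusted p = 0.48), with both 9A1 arrays above both 14B3 arrays. At 5 days Oasl2 was lower in 9A1 by 1.58 ± 0.88, both arrays of 9A1 lying under both of 14B3, and was not called either (adjusted p = 1.00).

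No member was called for a difference between the lines in the 5 day response by the interaction term, with 3 members at an unadjusted p under 0.05 by limma and 0.038% of all genes called. For the 1 day response 0 members were called, 1 member passed at an unadjusted p under 0.05 and 0% of all genes were called. The difference between the lines in the 5 day response (9A1 minus 14B3) had its lowest adjusted p among members in Irf1, at -1.18 ± 0.30 (adjusted p = 0.645), with a difference between 5 days and basal of 1.76 in 14B3 and 0.58 in 9A1. All 12 risen members had a difference above 0 in each line, and 10 of them a larger one in 14B3. These 12 were called on the mean of both lines over the same arrays, so differences above 0 in each line were largely set by that choice. The members share the same basal 9A1 arrays and the share over all genes was not counted, so no line difference is concluded from these counts. With basal 9A1 replicate 1 left out 12 were above 0 in 9A1 and 7 were larger in 14B3. With basal 9A1 replicate 2 left out 11 were above 0 in 9A1, Xaf1 being at -0.28, and 10 were larger in 14B3.

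**Figure D4:**
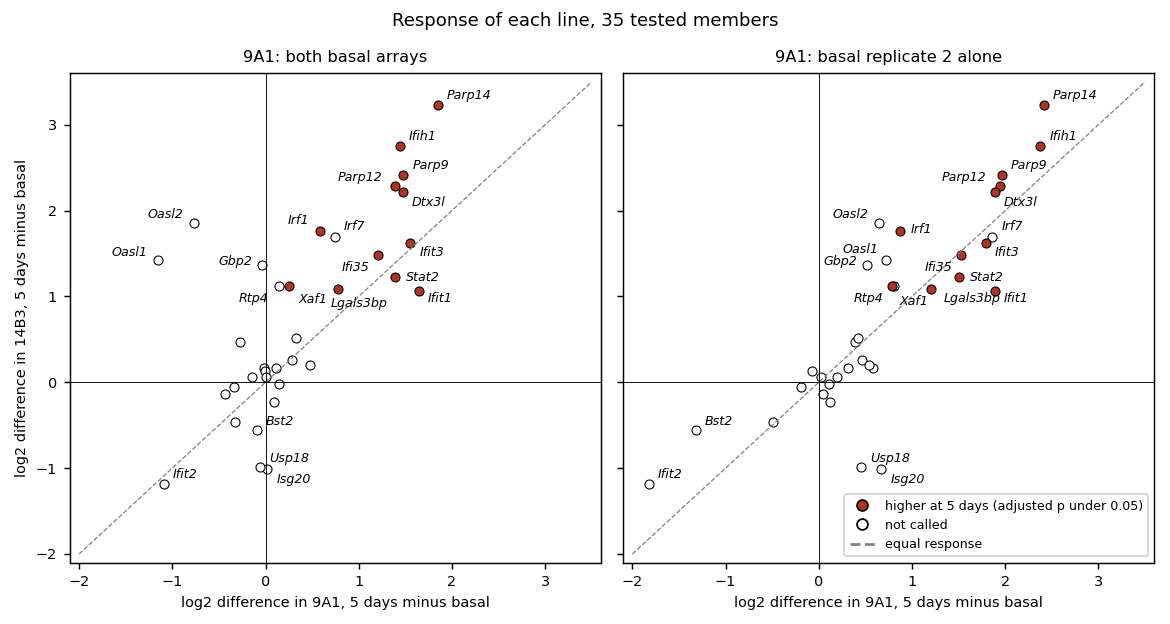
Log2 difference between 5 days and basal culture in 14B3 (vertical axis) against that in 9A1 (horizontal axis) for the 35 tested members, with both basal 9A1 arrays (left) and with basal 9A1 replicate 2 alone (right). Filled points are members higher at 5 days over both lines and the dashed line marks equal responses. Oasl1 moves from -1.15 to 0.72 on the horizontal axis.

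Single members show the size of this dependence on 1 array. In 9A1 the response of Oasl1 was -1.15 with both basal arrays and 0.72 without replicate 1, against 1.43 in 14B3. That of Parp14 was 1.85 and 2.41, against 3.23. Without basal 9A1 replicate 2, 8 members were called higher in 9A1 in basal culture (6.53% of all genes) and 8 had a smaller 5 day response in 9A1 (3.62% of all genes). Among them Irf1 differed by 0.95 (adjusted p = 0.0173) in basal culture. The 8 in basal culture were Irf1, Irf7, Ifih1, Oasl1, Gbp2, Parp9, Parp12 and Parp14. Oasl1 and Parp14 were then also called higher in 9A1 over the cultures (3.22% of all genes), and Ifih1, Irf1 and Oasl1 had a smaller 1 day response in 9A1 (4.05%). Replicate 1, the highest basal array for 25 of the 35 members, was then the only basal 9A1 array. Higher basal levels and smaller responses in 9A1 were therefore largely set by that choice. No line difference is concluded from these calls. With 9A1 replicate 1 of 1 day left out, Herc6, Ifit1 and Rsad2 were higher in 9A1 at 1 day by 1.13, 1.21 and 0.95. These differences rest on 9A1 replicate 2 alone, which stood apart, so no line difference is concluded from them either.

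Without both arrays that stood apart, 7 members were called between the lines over the cultures, 2 higher in 9A1 (5.99% of all genes) and 5 lower (4.62%). Usp18 was lower in 9A1, at -0.93 (adjusted p = 0.000559), as were Oasl2 at -0.94 (adjusted p = 0.00524), Oasl1, Irf7 and Xaf1. Bst2 was higher in 9A1, at 0.85 (adjusted p = 0.00317), as was Ifit2. Usp18 read 5.94 and 4.91 in 9A1 and 6.34 and 6.46 in 14B3 in basal culture, 4.92 and 7.03 in 9A1 and 6.20 and 6.18 in 14B3 at 1 day and 5.42 and 5.32 in 9A1 and 5.52 and 5.30 in 14B3 at 5 days, so the 2 lines lay close together at 5 days. The 2 arrays left out were chosen after these members' levels on them were seen. Only 1 array of 9A1 was left in basal culture and 1 at 1 day, so no line difference is concluded from this fit. In basal culture Bst2 was then called higher in 9A1 (1.18% of all genes) and Isg20 and Usp18 lower (1.2%). Usp18 was called lower in 9A1 at 1 day (2.1% of all genes), Oasl1 and Oasl2 were at 5 days (1.55%), and Isg20 and Usp18 had a larger 5 day response in 9A1 (0.583%).

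The genes that carry the interferon signal were described next, as the pathway around the members. Of 7 interferon ligand genes on the array 4 were tested and none was called at 5 days by limma, with 0 at an unadjusted p under 0.05. The listed ligand genes Ifne, Ifnk, Ifnl2 and Ifnl3 had no value here, so no type III ligand was covered. Ifnb1 lay between 4.87 and 5.83 and Ifna1 between 5.57 and 6.22 over all arrays, and Ifng and Ifna11 were under 5 on all 12. Probe sets of interferon alpha genes can cross-react within the family. Of 6 receptor genes 4 rose at 5 days, against 16.9% of all genes: Il10rb (1.53 ± 0.25), Ifngr2 (1.36 ± 0.27), Ifnar2 (0.85 ± 0.10) and Ifngr1 (0.59 ± 0.13). Ifnar1, the other type I receptor chain, differed by 0.12 ± 0.28 (adjusted p = 0.832).

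Of the signalling list as a whole, 33 genes were tested, 15 rose (45.5%, against 16.9% of all genes) and 1 fell (18.5% of all genes) at 5 days. Without basal 9A1 replicate 1 the genes called were not all the same, with Irf8 lost and Myd88 added. Il10rb and Ifngr2 then differed by 1.85 and 1.70. The largest rises were in Irf2, a relative of Irf1 that can repress its targets, at 1.58 ± 0.27 (adjusted p = 0.00205), in Rigi, the RNA sensor RIG-I, at 1.56 ± 0.20 (adjusted p = 0.000476), and in Il10rb. Rigi read 8.05 and 8.55 in 9A1 and 7.32 and 7.43 in 14B3 in basal culture and 10.03 and 9.80 in 9A1 and 8.79 and 8.98 in 14B3 at 5 days, higher at 5 days than in basal culture within each line. Tlr4, the receptor for bacterial lipopolysaccharide, fell by 0.69 ± 0.13 (adjusted p = 0.00332).

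A further list of interferon-induced genes outside the set had 41 with a value, as Gbp4 had no probe set of its own. Of these 38 were tested. At 5 days 17 rose (44.7%, against 16.9% of all genes) and 3 fell (7.89%, against 18.5%). Without basal 9A1 replicate 1 it was 19 higher and 4 lower, against 19.6% and 20.8% of all genes. Ddx60, a helicase that assists RIG-I, read 6.19 and 3.92 in 9A1 and 4.04 and 4.08 in 14B3 in basal culture and 6.49 and 6.25 in 9A1 and 8.08 and 8.50 in 14B3 at 5 days and was called higher (fitted difference 2.77 ± 0.43, adjusted p = 0.00124). As 3 of its 4 basal arrays were under 5, the size is uncertain, and with such levels set at 5 it was 2.03. Casp1 and Ube2l6, also among the 17 that rose, reached a log2 level of 5 on 5 day arrays alone. They entered the test only through the arrays where they were high, so their rises add no independent support to that count. Also named by size were Ifi30, a lysosomal thiol reductase, at 2.03 ± 0.49 (2.74 without basal 9A1 replicate 1) and the immunoproteasome subunit Psmb10 at 1.88 ± 0.17. Ly6e, a surface protein anchored in the membrane by a lipid, read 7.33 and 10.46 in 9A1 and 9.29 and 9.03 in 14B3 in basal culture and 6.26 and 4.39 in 9A1 and 4.52 and 4.68 in 14B3 at 5 days and was called lower (fitted difference -4.07 ± 0.78, adjusted p = 0.00344). Of its 5 day arrays 3 of 4 were under 5, and with these set at 5 the difference was -3.71. Pml, which forms nuclear bodies, and Pnpt1, a mitochondrial RNA exonuclease, fell by 0.97 ± 0.26 and 0.90 ± 0.17.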

How the data were processed

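Total RNA of the 12 cultures was labelled with biotin and hybridised to Affymetrix arrays. The deposited log2 values of 45101 probe sets were made with RMA and R 2.3.1, as the submitters' processing notes say. RMA brings all arrays to 1 distribution, so changes in total RNA are not seen, and it gives no detection calls. Of the probe sets 34945 list 1 gene, 932 several and 9160 none, and 64 are controls. The first kind was used, with the highest mean probe set for each gene. The test took the 15781 genes whose level reached 5 on 2 or more arrays.

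With R 4.3.3 and limma 3.58.1 (statmod 1.5.0 for blocks), 6 group means were fitted to all 12 arrays by lmFit and eBayes with a variance trend, checked on simulated data, and 9 comparisons were made. The members and lists were chosen with earlier results of these data known. Arrays were shown singly for the 8 largest called rises and for members called in a fall, a line or an interaction, of which there were none. The other members so shown were chosen after their values were seen. The lists outside the set name the 3 largest called changes each way. Alternatives were the filter, probe set rule, centring, quantile normalisation, weights, moderation, fewer arrays, thresholds, a replicate block, and each array left out. Setting levels under 5 at 5 for 3 genes was chosen after seeing the data, as was leaving out both arrays that stood apart. Promoter windows and gene order come from RefSeq tables (GRCm38.p6). Tables were handled with pandas 2.3.3 in Python 3.11.15.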

Additional observations from a re-analysis of the deposited data

Results flagged for a closer look

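In each culture the 4 arrays were checked for 1 value far from the other 3 by Dixon's ratio, over 105 sets of 4 values, and 12 were found. Chance alone flags about 1 in 20 of independent sets. These sets share the same arrays and are not independent, so the 12 cannot be read as an excess over chance. The 4 arrays span both lines. On basal 9A1 replicate 1 the highest value stood apart for Ifih1 (9.65, against 7.70 to 7.91 on the other 3 basal arrays), Oas1a (8.44, against 7.13 to 7.34), Oasl1 (10.02, against 6.29 to 6.70), Gbp2 (5.57, against 4.39 to 4.48) and Rtp4 (7.57, against 6.24 to 6.32). On basal 9A1 replicate 2 Isg20 was the lowest (8.41, against 9.51 to 9.72). At 1 day, 9A1 replicate 2 was the highest for Ifit1 (5.64, against 4.39 to 4.42), Oas1a (8.51, against 7.21 to 7.36) and Herc6 (8.81, against 7.59 to 7.76) and the lowest for Trim25 (10.67, against 10.94 to 10.98). At 1 day, 14B3 replicate 2 was the lowest for Dtx3l (7.77, against 8.36 to 8.44) and the highest for Cmpk2 (5.41, against 4.98 to 5.03). No array at 5 days stood apart for any member.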

How the results depend on the processing

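With 1 array left out in turn, the count of members called ranged from 11 to 18 for 5 days against basal, from 0 to 11 for 1 day against basal and from 8 to 13 for 5 days against 1 day. Between the lines it ranged from 0 to 2 over the cultures, 0 to 8 in basal culture, 0 to 3 in 1 day aggregates and 0 to 0 in those of 5 days, and for the interactions from 0 to 3 at 1 day and 0 to 8 at 5 days. Without both basal 9A1 replicate 1 and 9A1 replicate 2 at 1 day the counts were 23, 11 and 20 for the cultures in that order. Between the lines they were then 7 over the cultures, 3 in basal culture, 1 in 1 day aggregates and 2 in those of 5 days, with 2 for the 5 day interaction. For 1 day against basal the count of 2 became 1 with array weights, 0 with only the arrays compared, 0 at an adjusted p under 0.01 and 0 with at least 2-fold asked. Of the 12 rises at 5 days 11 passed in all 12 fits that left out 1 array, Xaf1 being the exception. No direction of a called member turned under an alternative. The labels do not say whether replicate numbers pair the samples. Correlations of deviations ran from -0.30 to 0.38, and with 2 arrays a group they cannot settle it. With the replicate block the limma counts were 12, 2 and 10. Xaf1 was lost at 5 days (adjusted p = 0.0824) and Irf1 between 1 and 5 days (adjusted p = 0.103). Gbp2 was gained in both (adjusted p = 0.0193 and 0.0313). Among other gains, Irf7 was called at 5 days against basal by limma under several settings. These were a floor of 6, median centring, quantile normalisation and array weights (adjusted p = 0.00324 to 0.0449). With 1 array left in a group, it is assumed to vary like the other groups. The number of arrays, 2 a group, limits the precision, and levels near 5 have no detection call behind them.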
